A study of Mus musculus with 16 samples.

Results

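The comparison described here asked whether carrying the amyloid transgenes and the Dp16 duplication together changed cortical gene expression by more or less than the sum of their separate effects. For each gene the effect of the transgenes without the duplication (5xFAD against wild-type) was subtracted from their effect with it (5xFAD-Dp16 against Dp16). The difference is called the departure, on the log2 scale. All 16 libraries of the series entered it, 16 of 16, in 4 groups of 4. A departure of 0 means that the folds of the 2 genotypes multiply, and a negative departure means that the doubly transgenic cortex stood below that product.

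The libraries came from poly-A RNA of brain cortex, taken at an age of 9 months from 2 females and 2 males per group, and no treatment is recorded. The groups were wild-type C57BL/6J mice, mice labelled Dp16, mice labelled 5xFAD, and mice labelled 5xFAD-Dp16 that carry both. Dp16 mice carry the lower end of mouse chromosome 16 in excess (genes between chr16:75540514-97962622, GRCm38, were counted as the segment), so they model gene dosage of that stretch and not of every human chromosome 21 gene. 5xFAD mice overexpress human amyloid transgenes with familial Alzheimer mutations from the neuronal Thy1 promoter, so their amyloid comes from transgenes and not from the mouse App gene. The 5xFAD-Dp16 mice therefore have an extra copy of mouse App beside the human transgenes. The deposited tables hold mouse genes, and the human transgenes have no entry of their own there.

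Amyloid plaques draw microglia, the resident macrophages of brain, into a state in which Trem2 and its adaptor Tyrobp switch on lysosomal, lipid and phagocytic genes, while astrocytes nearby raise Gfap. Some microglia also show MHC class II, the pair of chains that presents peptides to CD4+ T cells, whose genes are switched on together through the regulator Ciita. The duplicated segment holds App and the receptor subunits Ifnar1, Ifnar2, Ifngr2 and Il10rb, which gives it a known link to interferon signalling.

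Library totals ran from 16874481 to 22912168 counts, and the sex label matched in 16 of 16 libraries. Markers of excitatory and inhibitory neurons, astrocytes, oligodendrocytes, microglia and vessels were counted in every library. The neutrophil gene Ly6g was at 0 in 15 libraries, and the T cell gene Cd3e had at most 10 counts. Markers of striatum (Drd1, 616 to 1878 counts, and Adora2a, 314 to 1539) and of choroid plexus (Ttr, 105 to 43911 counts) were also present, to a varying degree. The dissected tissue may have held more than cortex, which was not tested. The slope of expression against gene length varied between libraries and was lowest in wild-type replicate 3 (−0.44), then in replicates 4 (−0.181) and 3 (−0.172) of Dp16. Dp16 replicate 3 also held 41200 CPM (counts scaled to library depth, with TMM normalisation) of the ribosomal-RNA-like transcript Gm42418, which stood between 936 and 2440 CPM in the other libraries. Nothing in the labels describes litters, so the p-values measure the spread between these samples.

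No gene departed from additivity at an adjusted p under 0.05 (edgeR's quasi-likelihood test, Benjamini-Hochberg adjustment over 17555 genes, 0%), and the smallest adjusted p was 1. At an unadjusted p under 0.05 there were 239 genes (1.36%), fewer than the 5% that this threshold itself allows. Of these, 163 lay below 0 (0.929% of genes tested) and 76 above (0.433%). The share of genes at that level depended on the fit. It was 7.18% (1285 genes) by edgeR without wild-type replicate 3 and 22.1% (3885 genes) by limma's voom with sample weights. The median departure over all genes was 0.04 (interquartile range −0.14 to 0.2). The median standard error was 0.391 and the median 95% interval reached 0.833 to each side. The departure joins 4 group means, and its error is 141% of that of a single effect. The median standard error also depended on the fit: it was 0.219 with the gene-length slope as a covariate and 0.319 without wild-type replicate 3. The 95% interval of the main fit is not adjusted for the number of genes. With 4 libraries per group, a departure smaller than 0.833 was not distinguishable from 0 in a typical gene of that fit even before adjustment. Passing the adjusted threshold took more: Rab7b and H2-Aa, described below, lay well beyond that interval and missed it in the main fit. DESeq2 called 1 gene, and the edgeR fit without a low-count filter called 25 (3 above 0 and 22 below). The 25 held 6 immune genes (H2-Aa, H2-Ab1, H2-Eb1, Cd74, Clec7a and Itgax), 11 noncoding or predicted transcripts such as Rn7sk, Rpph1 and Gm42418, 3 hormone genes (Pomc, Gh and Avp), 3 choroid plexus or ependymal genes (Ttr, Clic6 and Tmem212), Lars2 and Lrrc17.

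Genes that rose with the transgenes changed mostly in the same direction on both backgrounds, by a smaller median amount where Dp16 was present. Other genes did not all follow: 15 striatal genes had a median log2 fold change of −0.27 without Dp16 and 0.36 with it. Against wild-type, 264 genes rose in 5xFAD (1.5% of genes tested) and 2 fell (0.0114%), with 335 lower at an unadjusted p under 0.05. DESeq2 gave 432 higher and 38 lower there, edgeR with the length slope 700 and 226, and limma's voom with sample weights 804 and 396. Against Dp16, 68 genes rose in 5xFAD-Dp16 (0.387%) and none fell (0 by edgeR, 130 lower at an unadjusted p under 0.05, 5 by DESeq2). The comparisons share no library. They had 65 risen genes in common, 24.6% of the first set and 95.6% of the second.

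Of the 264 genes that rose without Dp16, 263 also had a log2 fold change above 0 with it (the exception, Gm49041, had −1.32), and 239 of those 263 passed an unadjusted p of 0.05 there. Their median log2 fold change was 1.8 without Dp16 and 1.19 with it. Choosing genes by 1 effect favours that effect, so the 68 genes chosen on the Dp16 background were read as well. Their median was 2.19 without Dp16 and 1.78 with it, the same order although this choice favours the other background. Among the 68, 54 had a departure below 0, against 42.9% of all genes. The count of genes that rose on the Dp16 background fell to between 22 and 42 without any 1 of Dp16 replicates 2, 3 and 4 or 5xFAD-Dp16 replicates 1 and 4, and was 127 without wild-type replicate 3. The total of 266 on the wild-type background fell to 167 and 169 without wild-type replicates 1 and 2.

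**Figure D1:**
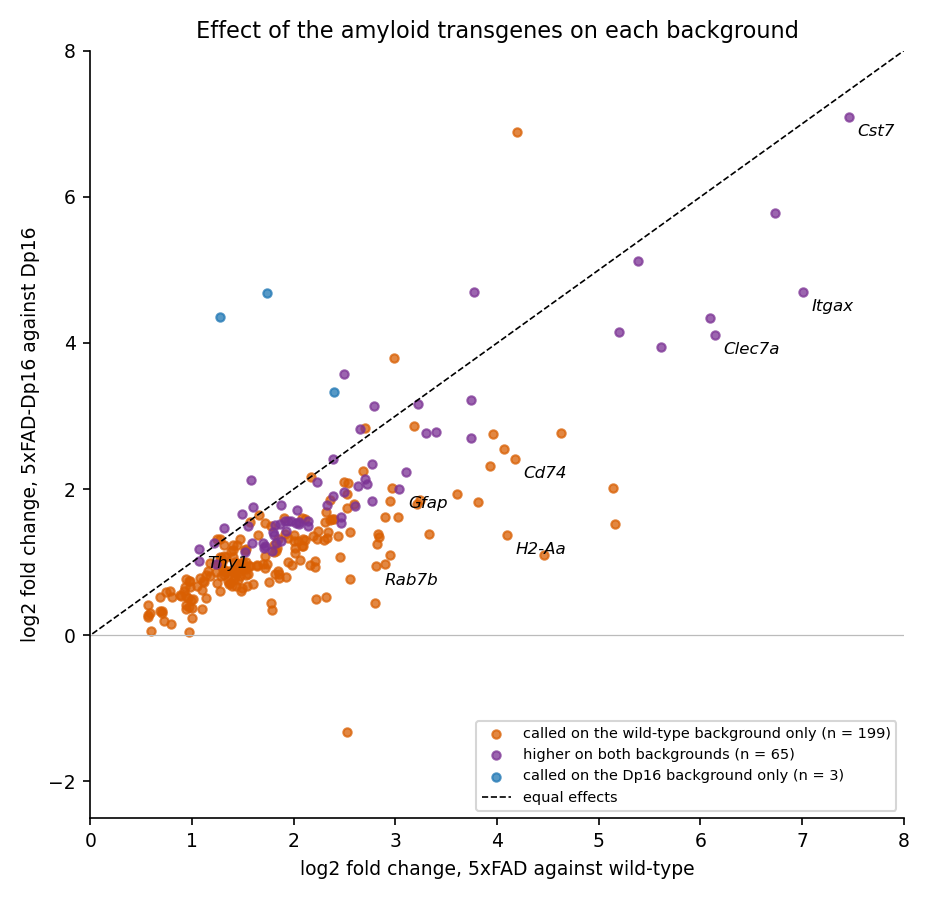
Log2 fold change of the amyloid transgenes without Dp16 (horizontal axis) and with Dp16 (vertical axis) for each gene that rose on at least 1 background, 1 point per gene, coloured by the background on which it passed the test (edgeR, adjusted p under 0.05). The dashed line marks equal effects. All points but Gm49041 lie above 0 on both axes and most lie below the line. The 3 genes that passed the test only on the Dp16 background (blue) lie above it.

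Gene lists of cell types and pathways are described by how many members lay on each side of 0. Over all genes 42.9% lay below 0, 0.929% passed an unadjusted p under 0.05 below 0 and 0.433% above, and 1.5% and 0.387% rose with the transgenes without and with Dp16; the counts of each list stand beside these shares. Several immune and glial lists had median departures below 0: −1.85 for 6 MHC class II genes, −0.62 for 35 interferon-stimulated genes, −0.6 for 30 reactive astrocyte genes, −0.55 for 32 genes of plaque-associated microglia and −0.49 for 16 genes shared by myeloid cells. Others did not: the median was 0.39 for 11 genes of other leukocytes, with 4 below 0, and 0.05 for 23 myelin genes. Neuronal lists had medians above 0: 0.6 for 15 striatal genes, 0.32 for 25 inhibitory neuron genes, 0.25 for 22 excitatory neuron genes and 0.21 for 28 synaptic genes. Constitutive proteasome subunits had −0.01 and respiratory chain genes −0.02. Single libraries moved several of these medians: without 5xFAD replicate 4 the interferon-stimulated median was −0.3, without 5xFAD-Dp16 replicate 3 the myeloid one was −0.31, and without wild-type replicate 3 or Dp16 replicate 4 the inhibitory one was 0.2 or 0.21. Without wild-type replicate 1 the excitatory and synaptic medians were both 0.06 and without wild-type replicate 3 they were 0.44 and 0.4. Between the same omissions the proteasome median ran from 0.18 to −0.46 and the respiratory one from 0.14 to −0.54. The other leukocyte median ran from 0.08 to 0.54 with 1 library left out. Lists share some members, such as Itgax, Psmb8 and Cxcl10.

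**Figure D2:**
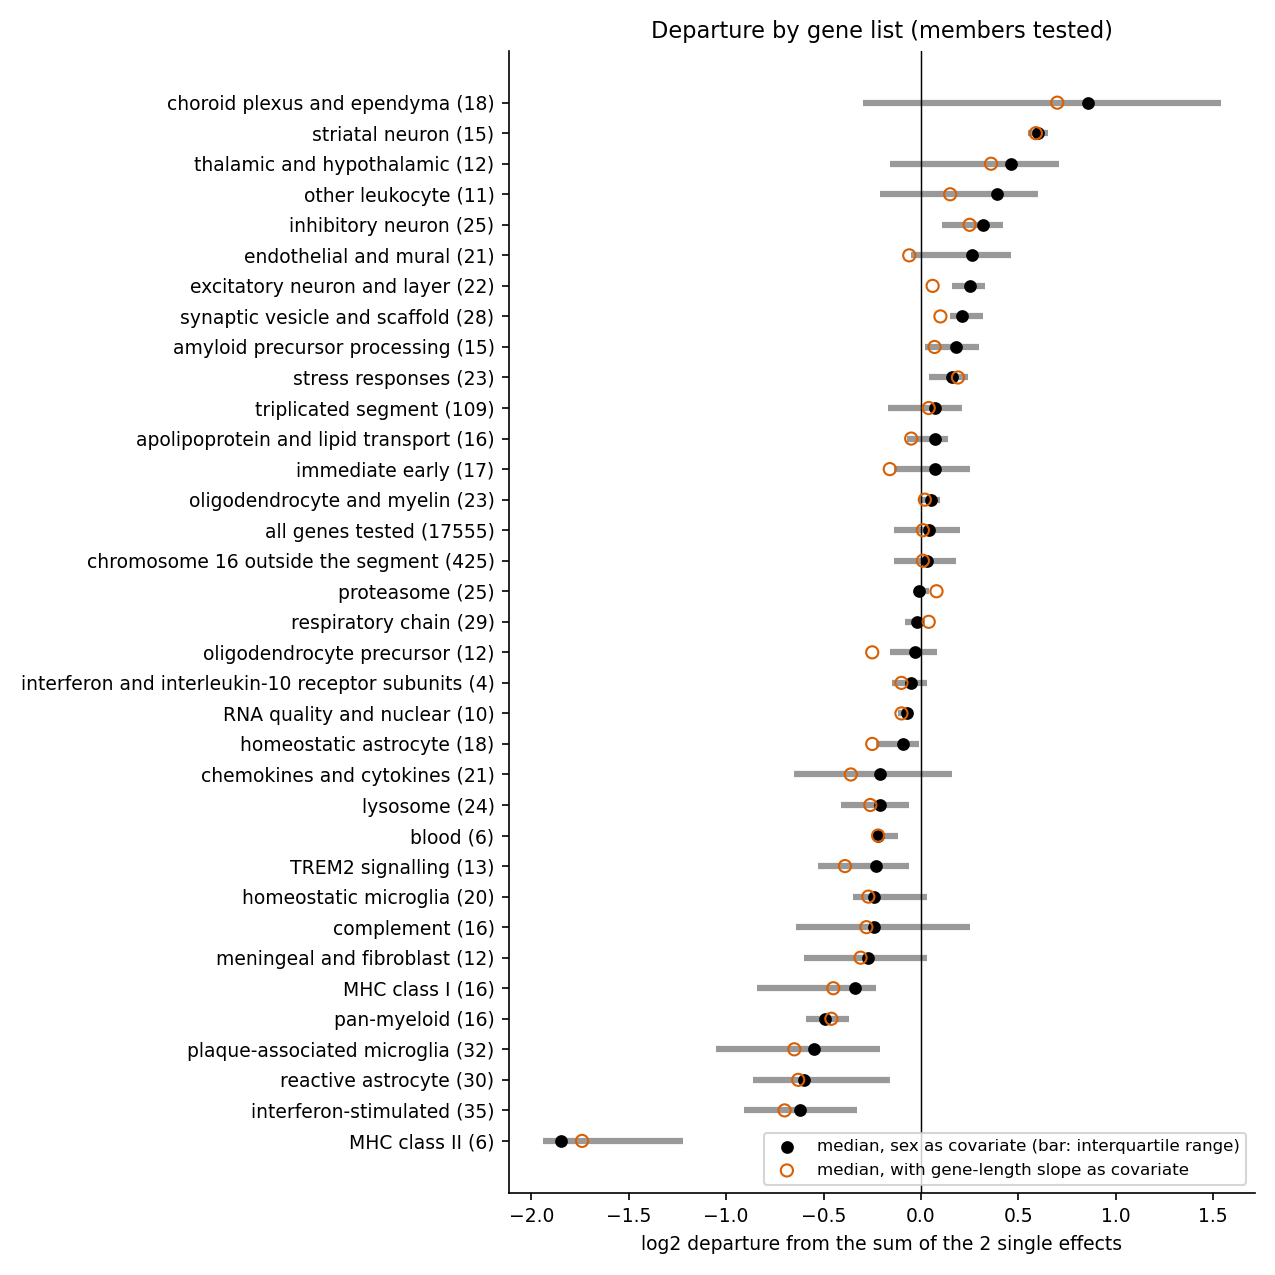
Median log2 departure of each gene list (black points, with the interquartile range of members as a grey bar) and the same median with the per-library gene-length slope as a covariate (open orange circles); the number of members tested stands in parentheses. MHC class II lies farthest to the left at −1.85, and all genes tested lie at 0.04.

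MHC class II showed the largest negative median of the lists. Of its 7 genes 6 were tested (Ciita did not pass the low-count filter), all 6 had a departure below 0, and 6 of 6 passed an unadjusted p under 0.05, against 0.929% of all genes below 0. All 6 rose in 5xFAD against wild-type, and 0 of 6 passed the test in 5xFAD-Dp16 against Dp16, where 68 genes did. The median log2 fold change of the 6 was 3.11 without Dp16 and 1.17 with it. By edgeR each of the 6 had an adjusted p of 1. The count of 6 was 3 without 5xFAD-Dp16 replicate 3 or without 5xFAD replicate 4, 0 in females alone and 6 in males alone, while 6 of 6 lay below 0 in all the alternatives run.

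Class II promoters carry a shared X box and Y box, through which they are switched on together. The sequences below show where these letters were found ahead of an alpha chain gene (a Y box) and a beta chain gene (an X box and Y boxes). They are the 150 bases before the RefSeq start (GRCm38.p6), 5′ to 3′ on the gene's strand, with Y boxes (ATTGG, or CCAAT on the other strand) and X boxes (TAGNAAC followed at once by TGATG, or its reverse complement) in capitals. The motifs do not overlap one another here. H2-Aa lies at chr17:34287824-34287973 on the minus strand and H2-Eb1 at chr17:34305717-34305866 on the plus strand.
H2-Aa: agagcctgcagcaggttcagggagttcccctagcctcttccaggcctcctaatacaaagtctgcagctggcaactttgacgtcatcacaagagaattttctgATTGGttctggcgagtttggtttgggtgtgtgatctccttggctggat
H2-Eb1: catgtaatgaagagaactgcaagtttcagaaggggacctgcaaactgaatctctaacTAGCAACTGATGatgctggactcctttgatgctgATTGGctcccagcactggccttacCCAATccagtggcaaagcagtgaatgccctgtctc
Of the listed class II genes, 4 had a promoter in the RefSeq table. Here and for the interferon element below, a listed gene counted once if any promoter of it matched. The share over all promoters counts each promoter. The Y box letters were in 4 of 4, against 37.4% of 32851 promoters of the same length (250 bases before to 50 after a start). The X box letters were in 2 of 4, H2-Eb1 and H2-DMb1, against 0.0426% of all promoters. No match says only that these exact letters are not in the window.

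H2-Aa, the alpha chain of the class II molecule I-A, is at chr17:34282744-34287823 (ENSMUSG00000036594, minus strand). It stood at 1.23, 2.58, 2.66 and 1.08 CPM in wild-type replicates 1 to 4 and at 3.98, 2.12, 5.95 and 2.78 in Dp16. It stood at 9.57, 23.5, 28.9 and 64.8 CPM in 5xFAD and at 11.6, 5.33, 4.94 and 17.2 in 5xFAD-Dp16. Every 5xFAD library was above every library without transgenes, whereas 2 of the 5xFAD-Dp16 libraries (replicates 2 and 3, both male) lay within the range of Dp16. The 5xFAD and 5xFAD-Dp16 libraries overlapped. The departure was −2.73 ± 0.81 (SE, 95% interval −4.45 to −1.01, unadjusted p = 0.00402), and −2.11 to −3.19 with any 1 library left out. The mean in 5xFAD-Dp16, 9.77 ± 5.84 CPM (SD, n = 4), was 29.1% of the 33.5 CPM that the sum of the single differences gives, with a difference of −23.8 ± 12.2 CPM (SE).

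The other class II genes also had a higher mean in 5xFAD than in 5xFAD-Dp16, with differing overlaps. All 5xFAD-Dp16 libraries of H2-Ab1 and Cd74 were above Dp16, while for H2-Eb1 and H2-DMa 5xFAD replicate 1 lay below the highest Dp16 library. H2-Ab1, the beta chain of I-A, averaged 33.8 ± 22.2 CPM in 5xFAD and 11.6 ± 5.73 in 5xFAD-Dp16, against 3.46 ± 1.45 in wild-type and 4.35 ± 1.76 in Dp16 (SD, n = 4), with a departure of −1.94 ± 0.67. H2-Eb1, a beta chain of I-E, had a departure of −1.93 ± 0.84. Cd74, the invariant chain that guides class II molecules to the endosome, stood at 31, 37.3, 64.6 and 107 CPM in 5xFAD and at 25.8, 9.71, 14.3 and 47.6 in 5xFAD-Dp16, with a departure of −1.77 ± 0.7. H2-DMa and H2-DMb1, which load peptides onto class II molecules, had departures of −0.54 ± 0.24 and −1.03 ± 0.35. Replicate 4 of 5xFAD held the highest level of each of the genes named here except H2-DMb1, and without it the departures of H2-Ab1, H2-Eb1 and Cd74 were −1.39, −1.2 and −1.29. H2 genes have near copies among which reads can be split, so single H2 values are uncertain. In bulk tissue, fewer cells of a type and less RNA per cell cannot be told apart.

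**Figure D3:**
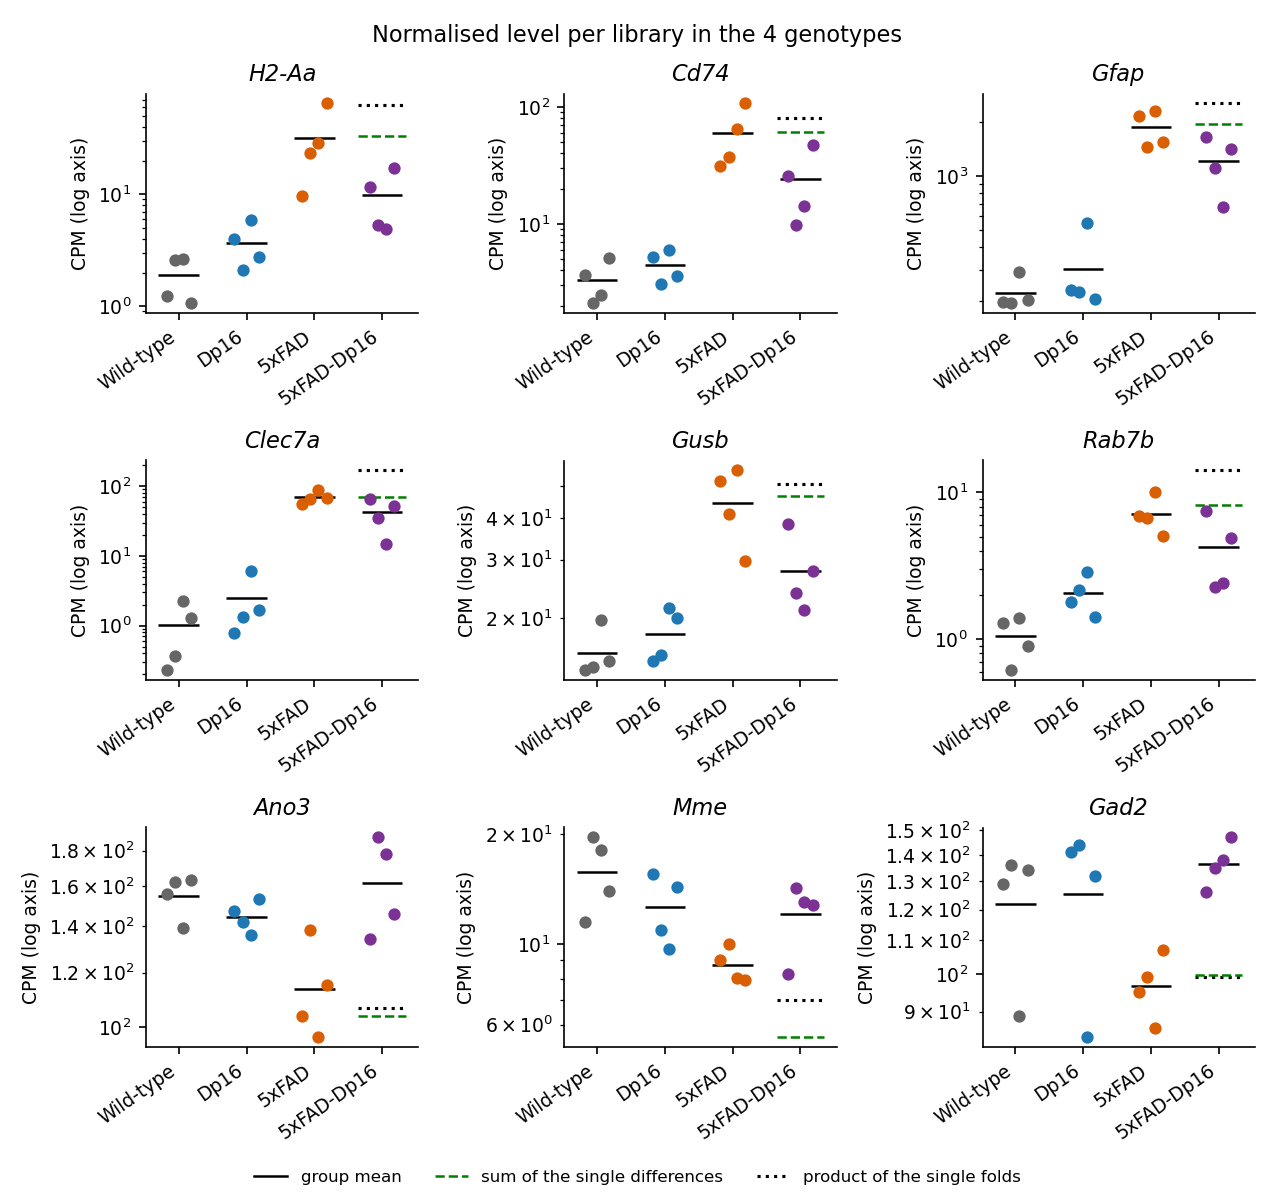
TMM-normalised CPM per library (log axis) for 9 genes in the 4 genotypes, 1 point per library with replicates 1 to 4 from left to right and a black line at the group mean; at 5xFAD-Dp16 the green dashed line is the sum of the single differences and the dotted line the product of the single folds. The 5xFAD-Dp16 means of H2-Aa, Cd74, Gfap, Clec7a, Gusb and Rab7b lie under both lines, and those of Ano3, Mme and Gad2 lie above both.

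Genes of plaque-associated microglia rose with the transgenes on both backgrounds. Of 33 listed genes 32 were tested: 17 rose without Dp16 and 7 with it, and the median log2 fold change was 2.01 and 1.29. The departure was below 0 in 30 of 32, against 42.9% of all genes, and 6 passed an unadjusted p under 0.05 below 0, against 0.929%: Itgax, Clec7a, Mamdc2, Cd52, Igf1 and Lpl. No member did so above 0. That count of 6 became 3 without wild-type replicate 1, Dp16 replicate 3 or 4, 5xFAD-Dp16 replicate 3 or 5xFAD replicate 3, and 11 without wild-type replicate 3.

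Igf1, a growth factor that microglia make around plaques, stood at 5.23, 4.96, 5.61 and 5.64 CPM in wild-type and at 4.33, 6.94, 5.76 and 5.47 in Dp16. It stood at 17.7, 16.1, 21.2 and 11.4 CPM in 5xFAD and at 13.1, 8.1, 6.12 and 9.89 in 5xFAD-Dp16. In 5xFAD every library was above all those without transgenes, while 5xFAD-Dp16 replicate 3 was within the range of Dp16. The departure of Igf1 was −0.89 ± 0.27 (unadjusted p = 0.00514), and its 5xFAD-Dp16 mean was 55.2% of the sum of single differences.

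Clec7a, the beta-glucan receptor Dectin-1, held 55.5, 66.4, 87 and 67.2 CPM in 5xFAD and 65.4, 35.1, 14.9 and 52.7 in 5xFAD-Dp16. Its counts without transgenes were low, with 4, 7, 37 and 27 in wild-type and 18, 28, 123 and 37 in Dp16. Clec7a rose on both backgrounds (log2 fold change 6.14 ± 0.64 and 4.1 ± 0.57, adjusted p = 0.000128 and 0.00369 by edgeR) and its departure was −2.04 ± 0.78. Part of that departure sits in the Dp16 group itself: without Dp16 replicate 3, the library with 123 counts, it was −1.28. Itgax, an integrin of microglia at plaques, had a departure of −2.31 ± 0.92 that rests on counts of 3, 2, 0 and 6 in wild-type. Cst7, a cysteine protease inhibitor, had the largest log2 fold change among those named here on both backgrounds (7.46 ± 0.63 and 7.09 ± 0.63) and a departure of −0.37 ± 0.86, which turned to 0.93 without Dp16 replicate 3. On the CPM scale the 5xFAD-Dp16 mean of Cst7 was 51.4% of the sum of single differences.

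Trem2, the lipid-sensing receptor of microglia, rose on both backgrounds. It stood at 180, 189, 213 and 137 CPM in 5xFAD and at 159, 96, 62.7 and 141 in 5xFAD-Dp16, against 17.8 to 47.1 in the 8 libraries without transgenes. The groups with transgenes overlapped, and the departure was −0.59 ± 0.42 (−0.38 without wild-type replicate 1 and −0.36 without Dp16 replicate 4). Its adaptor Tyrobp had a departure of −0.79 ± 0.48 (−1.19 without wild-type replicate 3). It rose on the wild-type background (adjusted p = 0.00167 by edgeR) and missed the threshold on the Dp16 background (adjusted p = 0.0674 by edgeR). Over the TREM2 signalling list 11 of 13 genes were below 0 and none of the 13 passed an unadjusted p of 0.05. The median of that list, −0.23, ran from −0.5 without 5xFAD-Dp16 replicate 1 to −0.1 without 5xFAD-Dp16 replicate 2 or 5xFAD replicate 3.

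Among 16 genes shared by myeloid cells 15 lay below 0 (42.9% of all genes), and C1qc, a chain of complement C1q, and Cd68, a lysosomal membrane protein of macrophages, passed an unadjusted p under 0.05, a count that ran from 0 without wild-type replicate 1 or 5xFAD-Dp16 replicate 3 to 7 without wild-type replicate 3. Cd68 held 101, 68.1, 89.2 and 45 CPM in 5xFAD and 84.3, 34.4, 26.2 and 50.5 in 5xFAD-Dp16, with a departure of −0.83 ± 0.35. The homeostatic microglia list, led by surface genes of resting microglia, had 13 of 20 below 0 with a median of −0.24 (−0.03 without Dp16 replicate 1 and −0.13 without wild-type replicate 3) and no member at an unadjusted p under 0.05. P2ry12, a purinergic receptor of that list, had a departure of −0.35 ± 0.29.

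Lysosomal genes lay below 0 in 21 of 24, with a median of −0.21 and Gusb and Hexa at an unadjusted p under 0.05 (8 genes without wild-type replicate 3, 4 without Dp16 replicate 2 or 5xFAD-Dp16 replicate 1, and 1 without wild-type replicate 1 or any of 6 other libraries). Gusb, the hydrolase beta-glucuronidase, stood at 51.6, 41.1, 55.7 and 29.8 CPM in 5xFAD and at 38.3, 23.8, 21.2 and 27.7 in 5xFAD-Dp16, against 14 to 21.4 without transgenes. In 5xFAD-Dp16 Gusb overlapped both 5xFAD (replicate 1) and Dp16 (replicate 3). The departure of Gusb was −0.88 ± 0.26 (unadjusted p = 0.0047) and it ran from −1.04 to −0.76 with 1 library left out. Rab7b, a small GTPase of late endosomes outside the lysosomal list, had the smallest unadjusted p among the genes named by the rule. It held 6.95, 6.71, 10 and 5.05 CPM in 5xFAD and 7.45, 2.28, 2.42 and 4.87 in 5xFAD-Dp16, against 1.29, 0.62, 1.39 and 0.893 in wild-type and 1.79, 2.17, 2.88 and 1.41 in Dp16. Dp16 replicates were all above wild-type, and 2 of the 5xFAD-Dp16 libraries were within the Dp16 range. Its departure was −1.86 ± 0.37 (95% interval −2.64 to −1.07, unadjusted p = 0.000136, adjusted p = 1 by edgeR and 0.0511 to 1 over the alternatives).

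Like the genes tested as a whole (1.5% rose without Dp16 and 0.387% with it), the interferon-stimulated list had more members called without Dp16. Of 35 tested, 20 rose without Dp16 and 3 with it, the median log2 fold change being 1.53 and 1. The departure was below 0 in 30 of 35 (42.9% of all genes), 6 of them at an unadjusted p under 0.05 (Stat2, Oas1a, Lgals3bp, Ifi44, Ifit3 and Irf9), and above 0 at that level in Oas2 alone, a gene with at most 1.26 CPM. The count of 6 was 0 without 5xFAD replicate 1, 2 without 5xFAD replicate 4, Dp16 replicate 3 or 5xFAD-Dp16 replicates 2 or 3, 3 without wild-type replicate 2, 10 without Dp16 replicate 2 or 5xFAD replicate 3, and 12 without 5xFAD replicate 2. Mx1, an antiviral GTPase encoded in the duplicated segment, had a departure of −1.41 ± 0.71.

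Stat2, the transcription factor that interferon receptors activate, is shown with the element through which interferon acts. This is a stretch ahead of its RefSeq start (chr10:128270248-128270347, GRCm38.p6, plus strand, 5′ to 3′), with the interferon-stimulated response element core (TTTC, any 2 bases, TTTC, or its reverse complement) in capitals.
Stat2: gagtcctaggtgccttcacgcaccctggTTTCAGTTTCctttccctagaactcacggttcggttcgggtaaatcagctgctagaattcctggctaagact
Those letters were in 16 of 24 listed interferon-stimulated genes with a promoter in the table and in 3.44% of all 32851 promoters, while 0 of 4 class II promoters held them. Stat2 stood at 35.2, 26.8, 21.4 and 32.9 CPM in 5xFAD and at 22.9, 15.3, 22.5 and 20.8 in 5xFAD-Dp16, against 14.4 to 20.1 without transgenes. Each 5xFAD library of Stat2 was above the libraries without transgenes, and the 5xFAD-Dp16 libraries fell on both sides of their upper end. The departure was −0.64 ± 0.25. Dhx58, a cytosolic RNA sensor outside the interferon-stimulated list, had a departure of −1.72 ± 0.51. Irf7, which amplifies interferon transcription, had one of −0.76 ± 0.41.

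MHC class I and its peptide-loading genes were below 0 in 15 of 16, with a median of −0.34 (−0.22 without 5xFAD replicate 4 and −0.53 without wild-type replicate 4) and none at an unadjusted p under 0.05. B2m, the light chain of class I, rose on both backgrounds (log2 fold change 1.52 ± 0.15 and 1.15 ± 0.15, adjusted p = 7.98e-05 and 0.00253 by edgeR), and its departure was −0.38 ± 0.21. Complement genes were split, with 9 of 16 below 0. C4b, which has the near copy C4a, had a departure of −0.86 ± 0.54 (−0.57 without wild-type replicate 3), and C3 one of −1.13 ± 0.56. Chemokines and cytokines lay below 0 in 13 of 21, with none at an unadjusted p under 0.05.

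Reactive astrocyte genes were below 0 in 24 of 30, with 4 at an unadjusted p under 0.05: Gfap, Aspg, Ggta1 and Tgm1 (8 without wild-type replicate 3 and 7 without Dp16 replicate 2 or 5xFAD-Dp16 replicate 1). Gfap, the intermediate filament of reactive astrocytes, stood at 198, 197, 290 and 203 CPM in wild-type and at 231, 227, 549 and 205 in Dp16. It stood at 2160, 1450, 2310 and 1540 CPM in 5xFAD and at 1660, 1110, 669 and 1420 in 5xFAD-Dp16. All 8 libraries with transgenes were above the 8 without them, Dp16 replicate 3 was the highest of the latter, and 5xFAD-Dp16 replicate 3 was the lowest of the former. Gfap rose on both backgrounds (log2 fold change 3.04 ± 0.26 and 2 ± 0.25, adjusted p = 5.01e-05 and 0.00174 by edgeR). Its departure was −1.03 ± 0.34 (unadjusted p = 0.00861), and the 5xFAD-Dp16 mean was 62.4% of the sum of single differences. Without Dp16 replicate 3 the departure was −0.75. Serpina3n, a secreted protease inhibitor of reactive astrocytes, had a departure of −0.66 ± 0.39 (−0.41 without Dp16 replicate 1). Homeostatic astrocyte genes had a median of −0.09.

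The lower glial values sat in particular libraries. Relative to wild-type, the median of the plaque-associated list was 2.38, 2.05, 2.45 and 1.41 (log2) in 5xFAD and 2.07, 0.89, 0.9 and 1.49 in 5xFAD-Dp16, and it lay between −0.21 and 0.33 in the other 8 libraries. The 2 male 5xFAD-Dp16 libraries, replicates 2 and 3, were the lowest of the 8 with transgenes. For class II the medians were 1.65, 2.74, 2.94 and 4.2 in 5xFAD and 1.77, 0.91, 0.86 and 2.48 in 5xFAD-Dp16, again with those 2 males lowest and inside the range of Dp16 (0.09 to 0.98). For reactive astrocytes they were 0.92, 1.1, 1.68 and 0.78 in 5xFAD and 1.3, 0.59, 0.53 and 1.14 in 5xFAD-Dp16. Each female 5xFAD-Dp16 library was inside the range of the 5xFAD libraries of both sexes in all 3 lists. Against females alone (5xFAD replicates 1 and 3), both lay below 5xFAD for the plaque-associated list. For class II and reactive astrocytes both lay between the 2 female 5xFAD libraries. The choroid plexus list had medians of 1.61, −0.6, −0.48 and 3.69 in the same 4 5xFAD-Dp16 libraries, again with replicates 2 and 3 lowest, and its part in the glial values was not tested. The meningeal and fibroblast list (median departure −0.27) had −0.47, −1.04, −0.76 and −0.23 there, with replicates 2 and 3 the lowest of the 16 libraries. Dcn, a proteoglycan of fibroblasts, stood at 46.6 CPM in 5xFAD replicate 4, the library highest for class II, against 8.48 to 16.1 in the other 5xFAD libraries. The part of these in the glial and class II values was not tested. The RNA quality list had 0.04, −0.07, −0.08 and 0.3 in 5xFAD-Dp16.

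**Figure D4:**
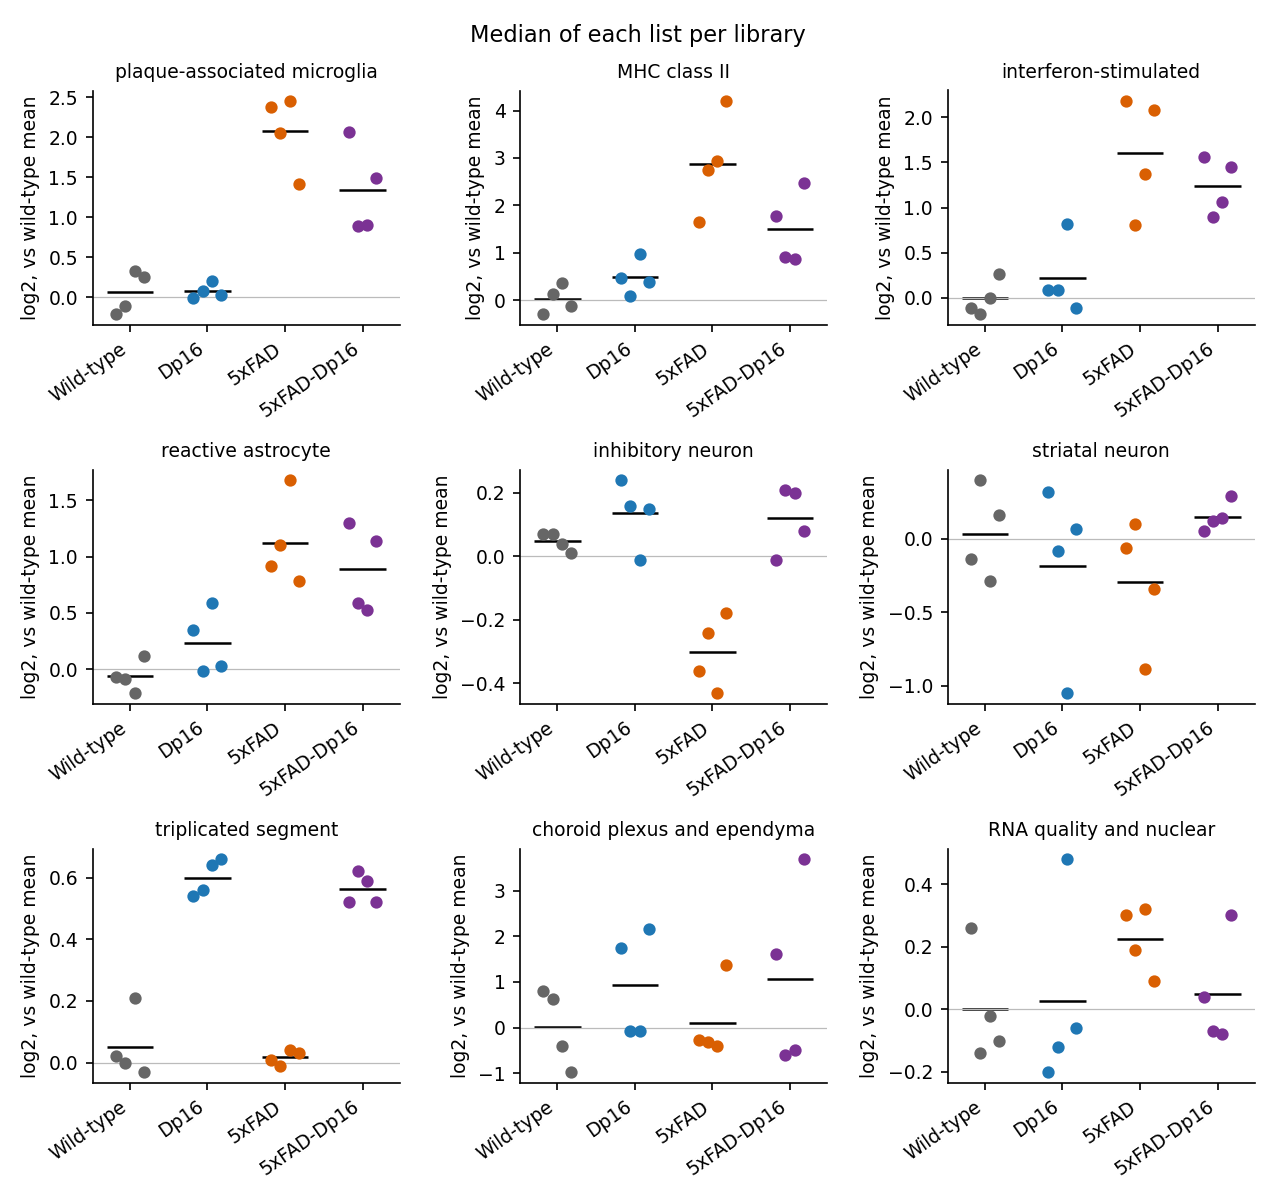
Median log2 level of the members of 9 gene lists in each library relative to the wild-type mean, 1 point per library (replicates 1 to 4 from left to right) with a black line at the group mean. In the inhibitory neuron panel the 4 5xFAD libraries (−0.43 to −0.18) lie below the other 12, and in the triplicated segment panel the 8 libraries with Dp16 lie between 0.52 and 0.66.

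The departure was also fitted in each sex and compared between the sexes. No gene differed at an adjusted p under 0.05 (0 of 17555, 0%; edgeR, 380 at an unadjusted p under 0.05, 18 by DESeq2, smallest edgeR adjusted p 0.486). H2-Aa had a departure of −1.47 ± 0.95 in females and −3.99 ± 0.97 in males (p of the difference 0.0856, adjusted p = 0.997 by edgeR). H2-DMb1 had −0.27 ± 0.42 in females and −1.8 ± 0.42 in males (unadjusted p = 0.0234, adjusted p = 0.997 by edgeR). Gfap had −1.21 ± 0.52 and −0.87 ± 0.52, in the opposite order. With 2 libraries per cell, a difference between the sexes was not detectable beyond those errors. The genes of smallest p were of choroid plexus, Kcnj13 and Ttr: Ttr stood at 9.59 to 302 CPM in wild-type and at 6.49 to 2180 in 5xFAD-Dp16, with the 2 females highest in the latter group.

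Genes of inhibitory neurons lay on the other side. Of 25 tested, 23 had a departure above 0, where 42.9% of all genes lay below 0. None passed an unadjusted p under 0.05, and the median was 0.32. With 1 library left out, 2 to 10 members lay below 0. The number above 0 at that level ran from 0 to 5, the highest without wild-type replicate 3. The median of the list relative to wild-type was −0.36, −0.24, −0.43 and −0.18 in 5xFAD and −0.01, 0.21, 0.2 and 0.08 in 5xFAD-Dp16. It ran from 0.01 to 0.07 in wild-type and from −0.01 to 0.24 in Dp16, so the 4 5xFAD libraries were the lowest of 16. Gad2, an enzyme that makes GABA, stood at 95.2, 99.2, 85.9 and 107 CPM in 5xFAD and at 126, 135, 138 and 147 in 5xFAD-Dp16, without overlap. It stood at 129, 136, 88.9 and 134 CPM in wild-type and at 141, 144, 83.9 and 132 in Dp16, where replicate 3 of each group was low. The departure of Gad2 was 0.46 ± 0.24, with 0.3 to 0.57 when 1 library was left out. Gad1 had a departure of 0.28 ± 0.2 and the neuropeptide Sst, encoded on chromosome 16 outside the segment, one of 0.42 ± 0.31 (0.2 without wild-type replicate 3 and 0.26 without 5xFAD replicate 3). Pvalb, of fast-spiking interneurons, had 0.13 ± 0.56.

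Inhibitory markers are shared with striatal neurons, whose list moved too. All 15 striatal genes had a departure above 0 (median 0.6, 1 of them at an unadjusted p under 0.05), including the dopamine receptors Drd1 (0.55 ± 0.34) and Drd2 (0.9 ± 0.5). With 1 library left out, 0 to 5 striatal genes passed that level above 0. Summed CPM of the striatal list was 930 to 1590 in wild-type, 601 to 1530 in Dp16, 693 to 1290 in 5xFAD and 1240 to 1510 in 5xFAD-Dp16. The part of this difference in the inhibitory values was not tested.

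Excitatory neuron genes were above 0 in 20 of 22 and synaptic genes in 28 of 28. When 1 library was left out, 0 to 8 excitatory and 0 to 7 synaptic genes lay below 0. With the gene-length slope as a covariate their medians were 0.06 and 0.1 in place of 0.25 and 0.21, while those of the inhibitory and striatal lists were 0.25 and 0.59. Wild-type replicate 3, of lowest slope, had the lowest median of both lists (−0.74 and −0.57).

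Ano3, Mme and Emb had a departure above 0 and their lowest group mean in 5xFAD. Ano3, a membrane protein of the anoctamin family, stood at 156, 162, 139 and 163 CPM in wild-type and at 147, 142, 136 and 153 in Dp16. It stood at 104, 138, 97 and 115 CPM in 5xFAD and at 134, 188, 178 and 146 in 5xFAD-Dp16. Replicates 1, 3 and 4 of 5xFAD were the lowest of the 16 libraries, and replicate 2 overlapped the other groups. The departure was 0.61 ± 0.17 (95% interval 0.25 to 0.97, unadjusted p = 0.00266), 0.54 to 0.64 with 1 library left out. Mme, the amyloid-degrading protease neprilysin, fell in 5xFAD against wild-type (log2 fold change −0.85 ± 0.2, adjusted p = 0.0424 by edgeR) and had −0.06 ± 0.19 in 5xFAD-Dp16 against Dp16. Mme held 9.05, 10, 8.03 and 7.95 CPM in 5xFAD and 8.25, 14.2, 13 and 12.8 in 5xFAD-Dp16, with overlap through 1 library, and its departure was 0.79 ± 0.28. Emb, an immunoglobulin-family membrane protein, fell in 5xFAD against wild-type (−0.59 ± 0.14, adjusted p = 0.044 by edgeR). It held 13.8, 11.7, 13.9 and 14.4 CPM in 5xFAD and 19.8, 19.1, 18.6 and 26.3 in 5xFAD-Dp16, without overlap, and its departure was 0.55 ± 0.19. The striatal list summed to 1190, 1290, 693 and 969 CPM in 5xFAD replicates 1 to 4. Replicate 2 was the highest of these for the list, Ano3 and Mme, and the lowest for Emb. Dp16 replicate 3 had 601 CPM of the list and 136 CPM of Ano3. Any part of striatal tissue in the values of these genes was not tested. Mme and Emb are the 2 genes that fell in 5xFAD by edgeR, where DESeq2 called 38 lower, the fit with the length slope 226 and voom with sample weights 396.

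Genes of the duplicated segment lay on both sides of 0. Of 384 annotated segment genes 109 were tested: 46 lay below 0 and 63 above, with none at an unadjusted p under 0.05 and a median of 0.07. Their median log2 fold change with Dp16 was 0.55 against wild-type and 0.57 within 5xFAD. The libraries with Dp16 had segment medians of 0.54, 0.56, 0.64 and 0.66 without the transgenes and 0.52, 0.62, 0.59 and 0.52 with them. Elsewhere on chromosome 16 the median departure of 425 tested genes was 0.03. Both Dp16 contrasts, with and without the transgenes, called 1 gene each (0.0057% of genes tested), in both cases the coat-colour gene nonagouti on chromosome 2. DESeq2 called 17 without the transgenes and 27 with them, and edgeR with the length slope 44 and 122. Voom with sample weights called 4491 and 42. Whether the Dp16 mice differ in strain background from the C57BL/6J mice was not tested.

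The 4 receptor subunits encoded in the segment had a median log2 fold change with Dp16 of 0.62 against wild-type and 0.59 within 5xFAD. Ifnar1, a chain of the type I interferon receptor, stood at 53.6, 45.6, 44.8 and 49.9 CPM in Dp16 and at 52.6, 50.5, 55.6 and 53.5 in 5xFAD-Dp16. Without the duplication Ifnar1 ran from 22.7 to 38.9 CPM over 8 libraries, below all those with it. Ifnar2 overlapped between libraries with and without the duplication, with 508 counts in 5xFAD replicate 1 and 379 in Dp16 replicate 3. The departure of Ifnar1 was 0.02 ± 0.19 (95% interval −0.39 to 0.43), and that of Ifnar2 was −0.13 ± 0.26. Sod1, an antioxidant enzyme, had 0.03 ± 0.26 and Rcan1, a calcineurin inhibitor, 0.17 ± 0.19 (95% interval −0.24 to 0.57). Mouse App had 1980 ± 277 CPM in 5xFAD-Dp16 against 1140 ± 172 in 5xFAD (SD, n = 4), and its departure was 0.29 ± 0.34. Samsn1, a segment gene of haematopoietic cells, rose with the transgenes on both backgrounds (log2 fold change 2.33 ± 0.36 and 1.78 ± 0.35, adjusted p = 0.00206 and 0.0353 by edgeR).

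Thy1, a neuronal surface protein whose promoter is the one used in the transgenes, rose on both backgrounds. It held 1990, 1600, 1540 and 1670 CPM in 5xFAD and 2210, 2070, 1900 and 1830 in 5xFAD-Dp16, against 736 to 1050 in the 8 libraries without transgenes. The 2 groups with transgenes overlapped and each lay above all libraries without them. Whether reads from the transgenes were counted as Thy1 was not tested. The departure of Thy1 was 0.11 ± 0.2 (95% interval −0.31 to 0.53). Apoe, a lipid carrier of astrocytes and microglia, had −0.16 ± 0.23, and myelin basic protein (Mbp) had 0.03 ± 0.25.

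**Figure D5:**
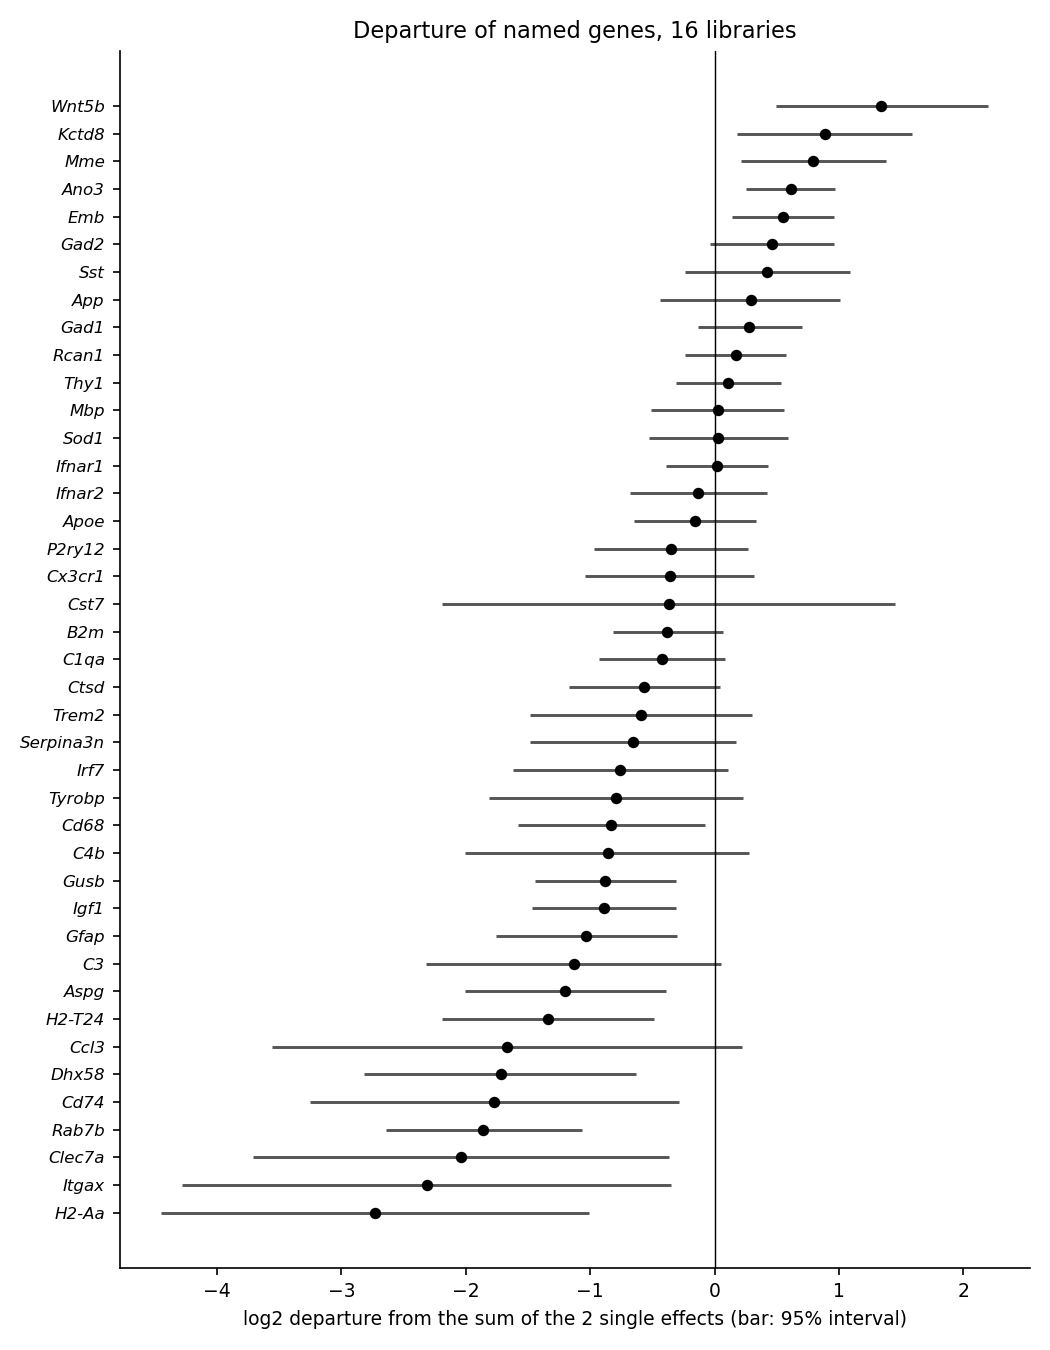
Log2 departure (points) with its 95% interval (bars) for 41 named genes, from the edgeR fit of 16 libraries, ordered by size. The interval of H2-Aa runs from −4.45 to −1.01 and that of Ano3 from 0.25 to 0.97; no gene shown has an adjusted p under 1.

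Genes of low level had the largest departures. Gm49041, a long noncoding transcript that DESeq2 called (−3.89 ± 0.78, adjusted p = 0.00907), was named after its values were seen. It had 2, 3, 3 and 6 counts in wild-type, 24, 23, 27 and 30 in Dp16, 19, 36, 25 and 15 in 5xFAD and 16, 9, 2 and 15 in 5xFAD-Dp16, so it was above wild-type in every library of each single genotype. By edgeR its departure was −3.85 ± 0.75 (adjusted p = 1). H2-Q5, Lrrc39 and Lox, also named after their values were seen, are the 3 genes that passed the adjusted threshold for a rise only on the Dp16 background. Their log2 fold changes were also above 0 without Dp16 (1.741, 1.277 and 2.395, against 4.69, 4.356 and 3.331 with it). By edgeR 2 of the 3 passed an unadjusted p under 0.05 there. In Dp16 replicates 1 to 4 they had 0, 1, 1 and 0 counts (H2-Q5), 1, 0, 1 and 0 (Lrrc39) and 2, 2, 2 and 6 (Lox), so their folds on that background rest on few counts.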

How the data were processed

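The authors deposited raw counts per gene and RPKM values for the 16 libraries of poly-A RNA (strand-specific kit, paired-end reads, per the labels' protocols). The submitters' processing notes name HISAT2 2.1.0, SAMtools 1.5, HTSeq 0.6.1 and genome GRCm38. The deposited RPKM values are the counts rescaled by gene length and depth. Strand use in counting: not given in the sources used here. Genes that overlap on opposite strands are therefore uncertain.

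Counts were normalised by TMM and fitted over all 4 groups with sex as a covariate in edgeR 4.0.16 (quasi-likelihood, robust; R 4.3.3), after filterByExpr with a minimum count of 10, which kept 17555 of 55385 genes. P-values were adjusted by Benjamini-Hochberg over those genes, with a threshold of 0.05. CPM are TMM-normalised, and log2 levels used a prior count of 1. Alternatives were RLE factors, DESeq2 1.42.0, no low-count filter, no sex term, a replicate block, limma 3.58.1 on log2(RPKM + 0.1) and log2(RPKM + 1), voom with sample weights, a gene-length slope per library as covariate, omission of the 3 libraries of lowest slope, each sex alone and each library left out. Coordinates are GENCODE M21 (GRCm38) and promoters RefSeq GRCm38.p6.

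The comparison and the gene lists were chosen with earlier results of these data known. Genes were named by these rules: up to 10 per direction of smallest unadjusted p at a mean log2 CPM of at least 1, genes chosen for their role, the 2 members of smallest unadjusted p in each list, and up to 6 per direction called with the length slope. Some genes that these rules name are not reported here. Others are said to be named after their values were seen.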

Additional observations from a re-analysis of the deposited data

Results flagged for a closer look

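In 18 of 412 groups of 4 libraries examined, 1 library stood apart from the other 3 by Dixon's gap-to-range ratio at the 95% level, where chance alone gives about 5%. The values are log2 CPM for genes and log2 medians relative to wild-type for lists.

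Wild-type replicate 3 was high for Gfap (8.18) and the complement gene C1qa (7.28), and low for Gad2 (6.48), the sodium channel Scn7a (0.69) and the amyloid precursor processing list (−0.45). Dp16 replicate 3 was high for Gfap (9.1) and low for Gad2 (6.39) and Apoe (11.09). Among 5xFAD libraries, replicate 4 was low for Cst7 (6.01) and high for the choroid plexus list (1.37). Replicate 3 was high for the ligand Wnt5b (1.29), and replicate 2 was low for the receptor subunit list (0.11). In 5xFAD-Dp16, replicate 1 was high for Ifnar2 (5.34). Replicate 3 was high for the excitatory neuron list (0.31) and the synaptic list (0.23), and replicate 2 for the proteasome list (0.16). Lox was low in wild-type replicate 2 (−3.32) and high in Dp16 replicate 4 (−1.64), at a few counts.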

How the results depend on the processing

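The count of genes departing from additivity was 0 in the main edgeR fit and in each fit that left out 1 library (0 to 0). It was 1 with DESeq2 and 25 without a low-count filter; the cause was not tested. The transgene effect without Dp16 called 266 genes, against 926 with the length slope, 470 with DESeq2, 426 without a filter and 167 to 290 with 1 library left out. With Dp16 it called 68, against 212, 179, 236 and 22 to 127. Voom with sample weights called 1200 without Dp16 and 221 with it. Departures differing between the sexes numbered 0, against 47 without a filter, 1 with the length slope and 18 with DESeq2. With the replicate block the counts were 0 for the departure, 237 and 60. The replicate numbers did not pair the samples: same-numbered libraries had correlations of −0.56 to 0.77 (12 of 24 pairs over 0.1), and 5 of 16 correlated best with their own number.

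Of 69 named genes, 56 kept their direction in every alternative run. The departure reversed in females alone for App (−0.09), Thy1 (−0.04), Ifnar1 (−0.07), Rcan1 (−0.08), Apoe (0.02) and Mbp (−0.02). It reversed in males alone for Cst7 (0.55), Sod1 (−0.26), Ttr (−7.36), Gm42418 (0.11) and Lars2 (0.31). Without the 3 libraries of lowest slope Cst7 was 0.13, Sod1 −0.12, Mbp −0.23 and Cxcl10 0.69. With voom Cst7 was 1.31, Sod1 −0.2 and Cxcl10 0.21. On the RPKM scale Ifnar1 (−0.01), Sod1 (−0.02 with either pseudocount) and Lox (−0.03) reversed, as did Ifnar1 with the length slope (−0.04). Leaving out 1 library gave −0.76 to 0.93 for Cst7, −0.1 to 0.14 for Ifnar1, −0.21 to 0.14 for Sod1, −0.14 to 0.18 for Mbp and −0.9 to 0.34 for Cxcl10. Of 34 lists, 17 stayed within 1 SD in 28 alternatives. The MHC class II median was −0.76 in females and −2.88 in males. The cause of these changes was not tested. With 4 libraries per group, the replicate spread gave the departure a median 95% interval of 0.833 to each side.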

Other observations

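Genes outside the lists described above were also named by the rule on smallest unadjusted p. Below 0 lay Hdc, which makes histamine (departure −1.35 ± 0.4), Cenpm, a centromere protein (−1.15 ± 0.35), Scn7a, a sodium channel (−1.06 ± 0.32), and H2-T24, a class I gene (−1.34 ± 0.4). Above 0 lay the Wnt ligand Wnt5b (1.34 ± 0.4), the imprinted gene Peg10 (0.7 ± 0.24), the kappa opioid receptor Oprk1 (0.77 ± 0.28), the potassium channel subunit Kctd8 (0.89 ± 0.33) and the ciliary gene Ift80 (0.49 ± 0.18). Each had an adjusted p of 1 by edgeR.

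Transcripts set by single libraries were the ribosomal-RNA-like Gm42418 and Lars2. Gm42418 had a departure of −2.68 ± 1.22, which was −0.27 without Dp16 replicate 3, and Lars2 had −1.53 ± 0.81, which was −0.26 without it. The choroid plexus gene Ttr had 3.08 ± 4.36.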
